A study of Homo sapiens with 6 samples.

Results

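The mitochondrial ribosomal proteins were described here in REH cells, a human cell line grown from a B-cell precursor acute lymphoblastic leukaemia, after 6 h with 50 µM S3I-201 or with its solvent DMSO. Their genes were taken by name, as rows called MRPL or MRPS followed by a number, without pseudogenes, antisense RNAs and read-through names. This gave 77 genes of 26364 in the authors' deposited table, 48 named for the large and 29 for the small subunit. S3I-201 is a small molecule directed at STAT3. Each group held 3 RNA-seq libraries from independent experiments, all of the same line, and the question was which transcripts changed under the compound.

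For each gene the authors' deposited table gives values pooled over the 6 libraries: its level as a mean normalized count, its log2 fold change and its p-values. Levels in single libraries could therefore not be shown. Rarely detected genes had means in steps of a single read, from which depths of about 6600000 to 14500000 counts per library were estimated. Which group was the reference is not stated. A positive value was taken to mean a higher level with S3I-201, and under the opposite reading every direction below turns. The fold changes appear shrunken towards 0, since single-read genes had log2 values of only 0.033 to 0.042 in size. Errors beside log2 fold changes (SE) are implied ones, found as the fold change's size over the normal deviate that its p-value stands for, and 95% intervals were made from them. These errors appear to carry the shrinkage too: RPL21, a cytosolic ribosomal protein gene at 0.562 mean normalized counts, had one of only 0.101. The intervals therefore describe shrunken values and can miss a larger unshrunken change. Of 10 B-precursor markers, 9 were expressed in the authors' deposited table (CD79A with 8207 and PAX5 with 8093 mean normalized counts) and VPREB1 was at 0. The 8 with an adjusted p were all negative, beside 53.6% of all genes with an adjusted p. Of these 8, only CD24 passed 0.05, at -0.61 (adjusted p = 0.00505), where 5.9% of all such genes passed. At an unadjusted p under 0.05, 3 of the 8 were lower, beside 6.88% of all such genes. The T-cell markers CD3D, CD3E, CD3G and CD2 were all at 0 there. Of 4 myeloid markers, MPO (978) and CSF1R (127) exceeded 100 mean normalized counts in the authors' deposited table.

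Mitochondria carry their own ribosome, which makes the few membrane proteins of the respiratory chain and ATP synthase that mitochondrial DNA encodes. Its RNA comes from mitochondrial DNA, while all of its proteins are encoded in the nucleus, made in the cytosol and imported. Many of these proteins have a counterpart in bacterial ribosomes, and others were added during the evolution of mitochondria. Nuclear genes for mitochondrial proteins are commonly described as driven by ETS-family factors such as GABPA, by nuclear respiratory factor 1 and by YY1.

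Promoter sequences were available from RefSeq (GRCh38.p14) for 68 of the 77 genes, in 84 windows that reach from 250 bases before to 50 after a gene start. The 4 below run from 150 bases before to 30 after the start, and capitals mark the ETS motif CCGGAAG, the YY1 motif AAGATGGC and the NRF1 motif (GCGCA and GCGC with any 1 base between) on either strand. MRPL51 and MRPS34 are shown because they had the smallest adjusted p-values of the family, and MRPL12 because its protein also binds the mitochondrial RNA polymerase. MRPL17 was added after its values were seen, as a gene with an NRF1 match and a low fold change.
MRPL51 (chr12:6493233-6493412, minus strand): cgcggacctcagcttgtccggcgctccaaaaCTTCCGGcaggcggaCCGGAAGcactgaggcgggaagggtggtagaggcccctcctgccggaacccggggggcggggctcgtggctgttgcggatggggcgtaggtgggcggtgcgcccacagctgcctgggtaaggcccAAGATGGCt
MRPS34 (chr16:1773105-1773284, minus strand): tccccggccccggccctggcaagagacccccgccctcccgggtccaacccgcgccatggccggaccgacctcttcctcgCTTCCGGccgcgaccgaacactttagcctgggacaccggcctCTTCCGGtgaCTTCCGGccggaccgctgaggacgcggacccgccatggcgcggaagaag
MRPL12 (chr17:81703217-81703396, plus strand): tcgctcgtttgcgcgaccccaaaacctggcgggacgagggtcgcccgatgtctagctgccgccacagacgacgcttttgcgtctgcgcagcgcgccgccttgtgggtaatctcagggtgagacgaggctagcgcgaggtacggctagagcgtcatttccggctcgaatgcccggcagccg
MRPL17 (chr11:6683311-6683490, minus strand): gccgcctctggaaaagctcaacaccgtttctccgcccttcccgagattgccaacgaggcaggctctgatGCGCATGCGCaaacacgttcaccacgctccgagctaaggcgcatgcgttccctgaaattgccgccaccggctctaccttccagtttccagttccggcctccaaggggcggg
The MRPL51 stretch held 2 ETS matches and 1 YY1 match, MRPS34 held 3 ETS matches, MRPL17 held 1 NRF1 match and MRPL12 held no match to any of these motifs.

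Transcripts of the mitochondrial ribosomal proteins lay mostly below 0 and none passed the test. Of the 77 genes, 76 had an adjusted p, and 0 of these 76 were under 0.05 in the authors' DESeq2 adjustment, against 5.9% of all 11912 genes with an adjusted p. The smallest value was 0.0841, and 2 genes were under 0.1, where 7.54% of all tested genes were. At an unadjusted p under 0.05, 10 members were lower and 1 was higher, which is 13.2% and 1.32% of them, beside 6.88% lower and 9.11% higher over all tested genes. Negative values were found in 62 of 76 members (81.6%) and in 53.6% of all tested genes. Among all tested genes within the members' middle range of abundance, 54.9% of 2581 were negative. The members' median log2 fold change was -0.15, a median fold of 0.9, with an interquartile range from -0.24 to -0.04. The median was -0.02 over all tested genes and -0.03 over those in that range of abundance. Genes that share regulation or libraries do not vary independently, so these counts describe the list and carry no test.

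The spread among the members was about as wide as the error of a single gene. Their log2 fold changes had an SD of 0.16, and the median implied SE of a member was 0.15, so the order of most neighbours in the list was not resolved. The 95% interval lay within a fold of 1.5 in either direction for 58 of 76 members (76.3%). This held for 62.8% of all tested genes and for 73.9% of those within the members' middle range of abundance. For the other 18 members the interval reached beyond that fold. As the values are shrunken, an interval within it does not exclude a larger unshrunken change. The plot of log2 fold changes by gene shows most MRPL and MRPS intervals crossing 0.

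**Figure D1:**
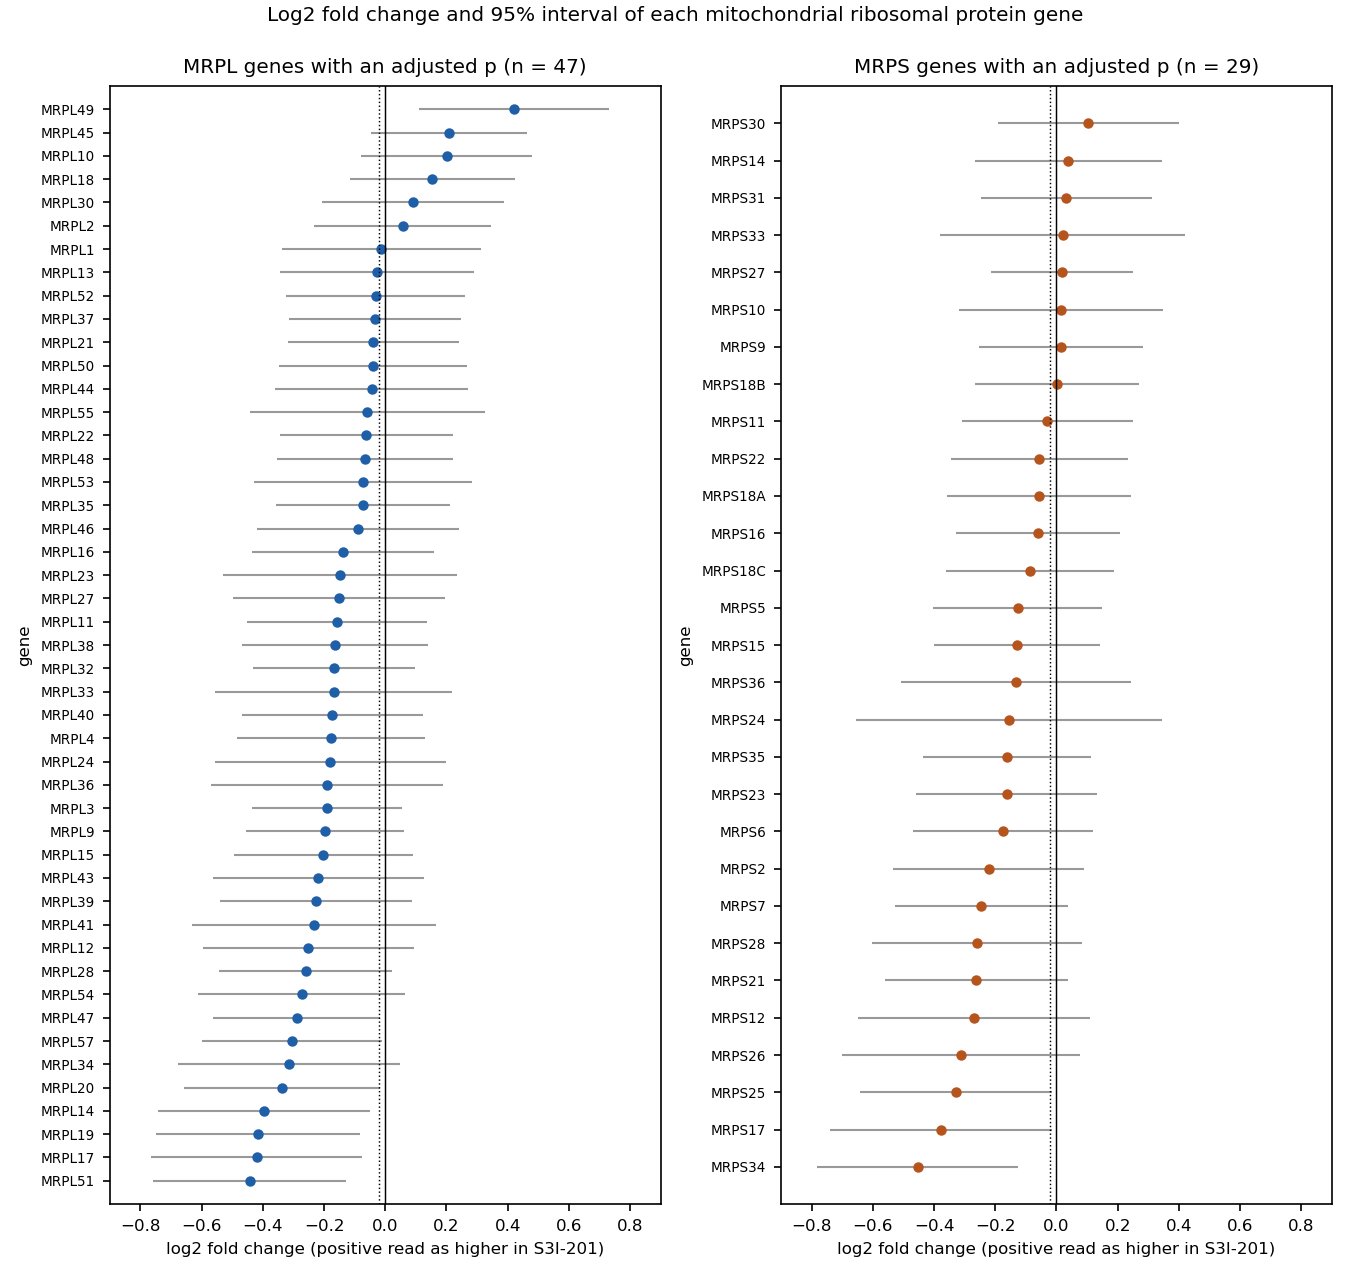
Log2 fold change (horizontal axis, positive read as higher in S3I-201) of each gene with an adjusted p, with its 95% interval from the implied SE as a line, for 47 MRPL genes (left) and 29 MRPS genes (right). The solid vertical line is 0 and the dotted line is the median of all tested genes at -0.02; 62 of the 76 points lie below 0, and MRPL49 is the only one whose interval lies wholly above it.

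Genes named for the small subunit, which reads the messenger RNA, had a median log2 fold change of -0.13, with 21 of 29 negative. MRPS34, a protein without a bacterial counterpart that the small subunit needs for its stability, had the lowest value of the whole family. In the authors' deposited table it stood at -0.45 (SE 0.17, adjusted p = 0.0942), a fold of 0.73 with an interval from 0.581 to 0.917. MRPS17, related to a bacterial protein of the small subunit body, had -0.38 in the authors' deposited table (SE 0.19, adjusted p = 0.285). MRPS25 had -0.33 there (adjusted p = 0.280) and MRPS26 -0.31 (adjusted p = 0.490), and neither has a bacterial counterpart. MRPS12, the counterpart of the bacterial protein of the decoding centre in which streptomycin resistance arises, had -0.27 in the authors' deposited table (SE 0.19, adjusted p = 0.560). None of these 5 passed.

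The proteins of the small subunit's head gave values on both sides of 0. Of 8 members placed there (MRPS7, MRPS9, MRPS10, MRPS14, MRPS24, MRPS31, MRPS33 and MRPS35), 3 were negative and the median was 0.01. Proteins with other names were not counted. MRPS7, which contacts the ribosomal RNA of the head, was the lowest of them at -0.25 in the authors' deposited table (SE 0.14, adjusted p = 0.426). MRPS9, MRPS10, MRPS14, MRPS31 and MRPS33 lay between 0.01 and 0.04 there. MRPS27, an RNA-binding protein of the pentatricopeptide repeat type, had 0.02 in the authors' deposited table, a mean normalized count of 1996 and the smallest implied SE of the family, 0.12. Its interval ran from -0.21 to 0.25.

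Genes named for the large subunit, which joins amino acids into the chain, had a median of -0.16, with 41 of 47 negative. MRPL51, a protein without a bacterial counterpart, had the smallest adjusted p of the family. In the authors' deposited table it stood at -0.44 (SE 0.16, adjusted p = 0.0841), a fold of 0.736 with an interval from 0.592 to 0.915. MRPL17, at the exit of the peptide tunnel, had -0.42 in the authors' deposited table (SE 0.18, adjusted p = 0.167). MRPL19 had -0.41 there (SE 0.17, adjusted p = 0.152), and MRPL14, which lies at the interface of the subunits, had -0.40 (SE 0.18, adjusted p = 0.213). Both MRPL14 and MRPL19 have bacterial counterparts. The 5 lowest of the 76 tested members, MRPS34, MRPL51, MRPL17, MRPL19 and MRPL14, lay below the 5th percentile of all tested genes, which was -0.38. By definition 5% of all tested genes lie below that value.

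At the other end, MRPL49 was the highest member, at 0.42 in the authors' deposited table (SE 0.16, adjusted p = 0.102), a fold of 1.34 with an interval from 1.08 to 1.66. It was the only member with an unadjusted p under 0.05 on the positive side. With the median of all tested genes subtracted its adjusted p became 0.0749, below the 0.109 of MRPL51. MRPL45, which tethers the ribosome to the inner membrane, followed at 0.21 in the authors' deposited table (adjusted p = 0.488), and MRPL10, which anchors the stalk, at 0.20 (adjusted p = 0.554). MRPL18, of the central protuberance, had 0.15 there (adjusted p = 0.678) and MRPL30 had 0.09 (adjusted p = 0.865).

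Some genes of the large subunit were placed in parts of it by hand, and no test was made between the parts. The stalk, where translation factors dock, had 4 of 5 genes negative and a median of -0.16. MRPL12, its mobile protein, stood at -0.25 in the authors' deposited table (SE 0.18, adjusted p = 0.551), on the other side of 0 from its anchor MRPL10. The difference between the 2 was not tested. At the central protuberance 6 of 7 genes were negative, with a median of -0.09. Around the tunnel exit 6 of 7 were negative, with a median of -0.15 and values from -0.42 for MRPL17 to 0.21 for MRPL45. At an unadjusted p under 0.05 the tunnel exit had 2 genes, both lower, and the stalk and the central protuberance had 0. MRPL44, which has the fold of an RNase III enzyme, had -0.04 in the authors' deposited table (interval from -0.36 to 0.27). MRPL41, also described as a factor in apoptosis, had -0.23 at a mean normalized count of 125 there (interval from -0.63 to 0.17).

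Proteins with a bacterial counterpart had a median of -0.16, with 39 of 46 negative, and those without one had -0.07, with 22 of 29 negative. Within the large subunit these medians were -0.17 and -0.07, and within the small subunit -0.14 and -0.11. No test was made between these groups.

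Some names do not match the place of the protein. MRPS18A and MRPS30 sit in the large subunit, and they had -0.06 and 0.10 in the authors' deposited table. MRPS18B and MRPS18C, the other relatives of bacterial protein S18, had 0.00 and -0.09 there. By their current names MRPS18A and MRPS18B were counted above among the proteins without a bacterial counterpart, although they are relatives of S18. MRPS36, which RefSeq lists as KGD4, belongs to the 2-oxoglutarate dehydrogenase complex rather than to the ribosome. It had -0.13 in the authors' deposited table (SE 0.19, adjusted p = 0.834). Placing these by structure gave medians of -0.14 for 26 small and -0.16 for 49 large subunit genes. Mitoribosomal proteins that carry other names were not members, and 5 of those listed had an adjusted p, 0 of which passed (1 at an unadjusted p under 0.05). PTCD3, which contacts messenger RNA at its entry, stood at -0.31 in the authors' deposited table (adjusted p = 0.138). CHCHD1 stood at -0.34 there (adjusted p = 0.373) and ICT1, a rescue factor built into the ribosome, at -0.23 (adjusted p = 0.540). The only positive gene of the 5 was DAP3, at 0.12 there (adjusted p = 0.743).

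MRPL42 was the only member with a fold change and no p-value, and in the authors' deposited table it stood at -0.20 with 651 mean normalized counts. A missing p-value is DESeq2's usual mark for a gene with an outlier among its counts, and 83 genes of the table had it. No interval could be given for it.

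The family was expressed at middling levels. The mean normalized count of tested members ran from 32.2 for MRPS24 to 2157 for MRPL37, with a median of 599, against 410 over all tested genes. After MRPL37 at 2157, the most abundant were MRPS27 at 1996, MRPL3 at 1883, MRPL4 at 1515 and MRPL49 at 1354 in the authors' deposited table. MRPL3 and MRPL4 had log2 fold changes of -0.19 and -0.18 there. MRPL37 had -0.033 there, which became 0.031 when the trend with abundance was subtracted. Divided by the length of the shortest principal transcript in GENCODE 29, the level ranged from 45.5 counts per kb for MRPS24 to 1455 for MRPL37, with a median of 468. By abundance, the median log2 fold change was -0.11 for 18 members under a mean normalized count of 400, -0.15 for 33 members from 400 to 800 and -0.17 for 25 members above 800. All 3 ranges had medians below 0, as the plot against abundance shows.

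**Figure D2:**
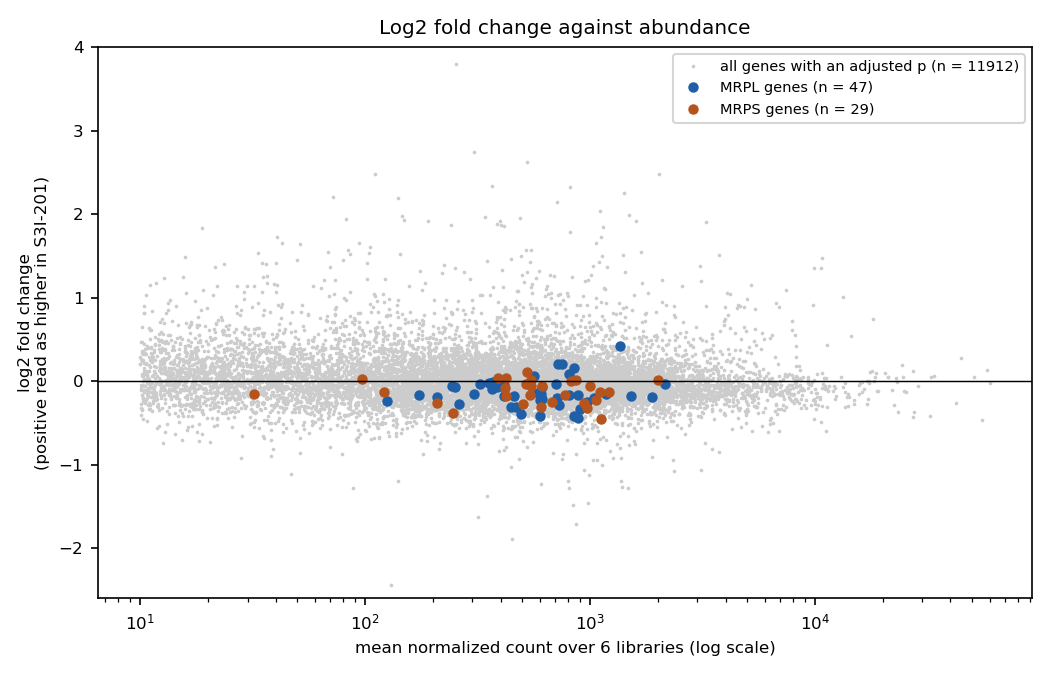
Log2 fold change (vertical axis, positive read as higher in S3I-201) against the mean normalized count over 6 libraries (log scale) for all 11912 genes with an adjusted p (grey), the 47 MRPL genes (blue) and the 29 MRPS genes (orange). The members lie between -0.45 and 0.42, mostly just below 0, within a range that other genes exceed on both sides.

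Some members overlap other genes, and the library method (TruSeq RNA v2) does not mark the strand. Exon bases were shared with another gene of the table by 28 tested members in GENCODE 29, and in 27 of 33 such pairs the partner lay on the opposite strand. Reads of such a pair cannot be told apart by strand, and how they were counted is not given in the sources used here. Overlaps were taken over all GENCODE 29 transcripts, and some of these pairs share 0 bases of their RefSeq spans, such as MRPL11 and PELI3. The share of all tested genes with such an overlap was not computed. The 28 tested members with shared bases had a median of -0.16 and the 48 without had -0.14. Summed over partners, 14 members shared over 10% of their exon bases, while MRPL13 shared only 3 bases with MTBP. This split therefore mixes small and large overlaps, and the part of overlap in these medians was not tested.

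The highest member was among them. MRPL49 lies on chromosome 11 from 65122183 to 65127371 (GRCh38, plus strand), and the 3′ end of SYVN1, on the minus strand from 65127279 to 65134519, reaches into it. In RefSeq the spans of both genes share 93 bases, and in GENCODE 29 they share 356 exon bases, or 11.6% of the exon bases of MRPL49. SYVN1, the ubiquitin ligase of endoplasmic reticulum-associated degradation, was higher, at 0.91 in the authors' deposited table (SE 0.16, adjusted p = 4.96e-07) with a mean normalized count of 2168. Its part in the MRPL49 value was not tested. FAU, which starts on the other side of MRPL49 on the opposite strand, had -0.01 in the authors' deposited table. It shares 282 exon bases with MRPL49 in GENCODE 29, while their RefSeq spans share 0 bases. In GENCODE 29 MRPL51 shares 31.3% of its exon bases with NCAPD2, a condensin subunit on the opposite strand, while their RefSeq spans share 0 bases. In the authors' deposited table NCAPD2 had -0.28, no p-value and 3539 mean normalized counts, and its part in the MRPL51 value was not tested. MRPS25 shares 22.2% with NR2C2, a nuclear receptor gene, which had 0.28 there (adjusted p = 0.592) where MRPS25 had -0.33.

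MRPS24 had the lowest count of the family and lies wholly within the read-through gene URGCP-MRPS24 in RefSeq, on the same strand. In the authors' deposited table URGCP-MRPS24 reached only 0.718 mean normalized counts. The interval of MRPS24 was the widest of the members, from -0.65 to 0.35. GENCODE 29 names 75 pseudogenes after 34 of the members, such as 8 for MRPS21, so single values can hold or lack shared reads. In the authors' deposited table MRPS31P5, a pseudogene copy of MRPS31, stood at 0.48 (adjusted p = 0.177) with a mean normalized count of 140, while MRPS31 stood at 0.03.

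Some members start close to another gene on the opposite strand. A gene of the table started within 1000 bases on the opposite strand of 29 members, and for 25 members such a partner had an adjusted p. The share over all tested genes was not computed, so these counts are not read as a trait of the family. Some partners start inside the member rather than upstream of it, such as PPP1R10, 903 bases into MRPS18B. A shared promoter was therefore not shown for every pair. These 25 members had a median of -0.09 with 19 negative, and their 25 partners a median of 0.01 with 12 negative and 0 past the test (in the authors' DESeq2 adjustment). MRPL46 and MRPS11, both members, start 34 bases apart and had -0.09 and -0.03 in the authors' deposited table. MRPL36 starts 34 bases from NDUFS6, a complex I subunit, and they had -0.19 and -0.22 there. MRPL47 starts 36 bases from NDUFB5, also of complex I, and they had -0.29 (SE 0.14) and 0.02 (SE 0.13) in the authors' deposited table. MRPS34 starts 52 bases from EME2, a nuclease subunit, which had -0.08 (SE 0.24) where MRPS34 had -0.45. No difference within a pair was tested.

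**Figure D3:**
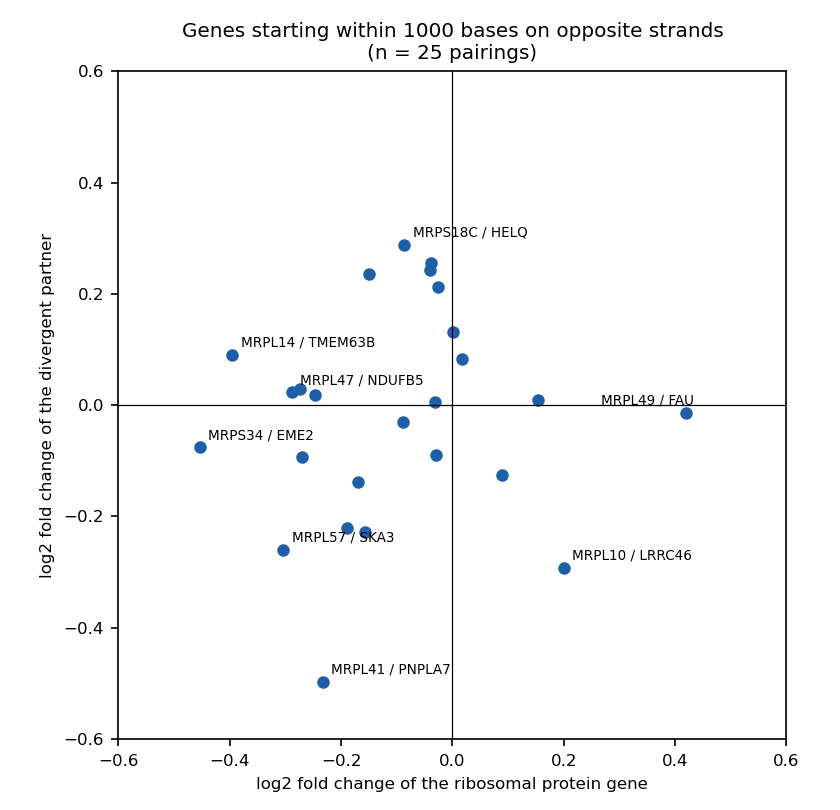
Log2 fold change of the partner gene (vertical axis, labelled divergent partner) against that of the ribosomal protein gene (horizontal axis). The 25 pairings have starts within 1000 bases on opposite strands, and some partners start inside the ribosomal protein gene. MRPL46 and MRPS11 are each other's partner and so shown from both sides. Most points lie left of 0, while the partners lie on both sides of 0, from -0.50 for PNPLA7 beside MRPL41 to 0.29 for HELQ beside MRPS18C.

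The promoters held ETS and YY1 letters more often than promoters at large. Both strands were searched, matches may overlap, and a gene with several starts has several windows, which can share bases. CCGGAAG was in 32 of 84 member windows (38.1%), in 17.4% of the 13125 windows of tested genes and in 10.3% of all 35116 windows. AAGATGGC was in 23 member windows (27.4%), in 5.04% of tested and in 2.89% of all windows. Its letters include ATG, so that a match after the gene start can also be a start codon. The NRF1 motif was in 10 member windows (11.9%), in 10.3% of tested and in 5.78% of all windows. The E-box CACGTG, which MYC and related factors bind, was in 10.7% of member, 9.31% of tested and 7.26% of all windows. The STAT motif TTCNNNGAA was in 9.52%, 6.32% and 7.66% of them, and the ATF4 motif TGATGNAA in 1.19%, 1.92% and 3.62%. A match is a run of letters in this window and says nothing of binding in these cells.

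Positions were counted once for each distinct site, from the nearest start where windows overlap. Of 38 ETS sites, 29 had their centre within 60 bases of the gene start, as 2 of the 3 in MRPS34 did. Those of MRPL51 were farther upstream, with centres at -115.5 and -100.5. Of 22 YY1 sites, 16 lay after the start, as in MRPL51. The 10 NRF1 sites all lay before it, with a median of -108 bases, and that of MRPL17 was centred at -76. Members with an ETS match had a median log2 fold change of -0.16, and those with a window and no match also had -0.16. The 20 tested members with a YY1 match had a median of -0.08 with 14 negative, and 47 without had -0.17 with 41 negative. For the E-box the medians were -0.06 with 6 of 9 negative and -0.16 with 49 of 58 negative. For NRF1 they were -0.19 with 5 of 9 negative and -0.16 with 50 of 58 negative, and for STAT -0.13 with 5 of 7 negative and -0.16 with 50 of 60 negative. Over all tested genes with a window, the medians with and without a match were -0.02 and -0.02 for both YY1 and ETS. They were -0.06 and -0.02 for the E-box, -0.03 and -0.02 for NRF1, and 0.002 and -0.02 for STAT. The motifs were chosen from textbook knowledge with the members' values known, and no test was made of these medians.

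**Figure D4:**
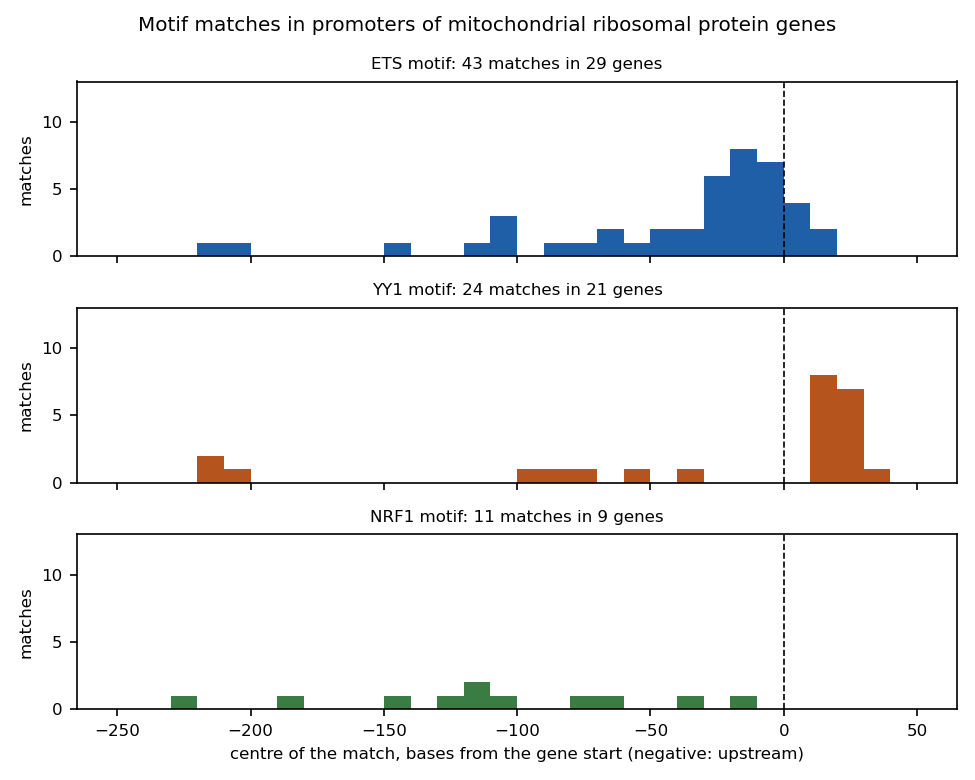
Number of motif matches (vertical axis, bins of 10 bases) by the distance of their centre from the gene start (negative is upstream) in promoter windows of mitochondrial ribosomal protein genes, for the ETS (43 matches at 38 distinct sites), YY1 (24 at 22) and NRF1 (11 at 10) motifs. A site in overlapping windows of a gene with several starts is drawn once for each window. ETS matches gather just before the start, YY1 matches just after it, and NRF1 matches are scattered upstream.

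Other genes of mitochondrial gene expression were read from lists that do not include the members. Of 93 such genes in the table, 90 had an adjusted p, and 3 passed 0.05, 1 higher and 2 lower, beside 5.9% of all tested genes. Among 26 factors of ribosome assembly and ribosomal RNA modification 0 passed in the authors' DESeq2 adjustment (5 at an unadjusted p under 0.05, all lower), 19 were negative and the median was -0.11. MRM1, a methyltransferase of the large ribosomal RNA, had -0.49 in the authors' deposited table (SE 0.20, adjusted p = 0.144). RPUSD3, a pseudouridine synthase-like protein, had -0.38 there (adjusted p = 0.166), and MALSU1, an assembly factor of the large subunit, had -0.39 (adjusted p = 0.248).

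Among 19 translation factors and partners 1 was higher and 18 did not pass, with a median of -0.09. At an unadjusted p under 0.05, 4 of them were lower and 1 was higher. The higher gene was MTO1, which modifies the wobble base of mitochondrial transfer RNAs, at 0.54 in the authors' deposited table (SE 0.16, adjusted p = 0.0217). Of 17 mitochondrial transfer RNA synthetases 1 was lower and 16 did not pass, with a median of -0.15 (3 at an unadjusted p under 0.05, all lower). The 1 that passed was MARS2, the methionine enzyme, at -0.52 in the authors' deposited table (SE 0.16, adjusted p = 0.0234). Of 16 genes that keep, transcribe or process mitochondrial DNA and its RNA, 0 passed in the authors' DESeq2 adjustment (5 at an unadjusted p under 0.05, all lower), and the median was -0.17. The smallest adjusted p-values there belonged to ELAC2, which trims transfer RNA ends, at -0.36 (adjusted p = 0.157), TRMT10C, part of mitochondrial RNase P, at -0.37 (adjusted p = 0.161), and the RNA-degrading PNPT1 at -0.33 (adjusted p = 0.163), all from the authors' deposited table.

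Of 7 tested regulators of mitochondrial biogenesis 1 was lower and 6 did not pass (3 of the 7 at an unadjusted p under 0.05, all lower). The 1 that passed was PPARGC1B, a coactivator related to PGC-1α, at -0.67 in the authors' deposited table (SE 0.17, adjusted p = 0.00262), farther from 0 than any member. PPRC1, a relative of PGC-1α, had -0.39 there (adjusted p = 0.0805). MYC, a factor that binds the E-box, had -0.57 and no p-value there. ESRRA had -0.39 there (adjusted p = 0.268). NRF1 had -0.08, GABPA 0.05, GABPB1 0.16 and YY1 0.01 in the authors' deposited table, and none of these passed. The 15 genes of mitochondrial DNA listed were not found by symbol, so the RNAs that these ribosomes contain and translate were not analysed here.

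The nearest comparisons are the ribosome of the cytosol and the respiratory chain. The median over cytosolic ribosomal proteins was -0.03, with 53 of 76 negative and an SD of 0.09, at a median mean normalized count of 7205. In the authors' DESeq2 adjustment 0 of 76 passed (1 at an unadjusted p under 0.05, higher). Nuclear subunits of oxidative phosphorylation had a median of -0.16, with 69 of 74 negative and an SD of 0.11, and in the authors' DESeq2 adjustment 0 of 74 passed (8 at an unadjusted p under 0.05, all lower). The mitochondrial ribosomal proteins, with a median of -0.15 and an SD of 0.16, were thus near the respiratory chain in their median, and no test was made between the lists. UQCR10, a complex III subunit, had -0.40 in the authors' deposited table (adjusted p = 0.105).

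**Figure D5:**
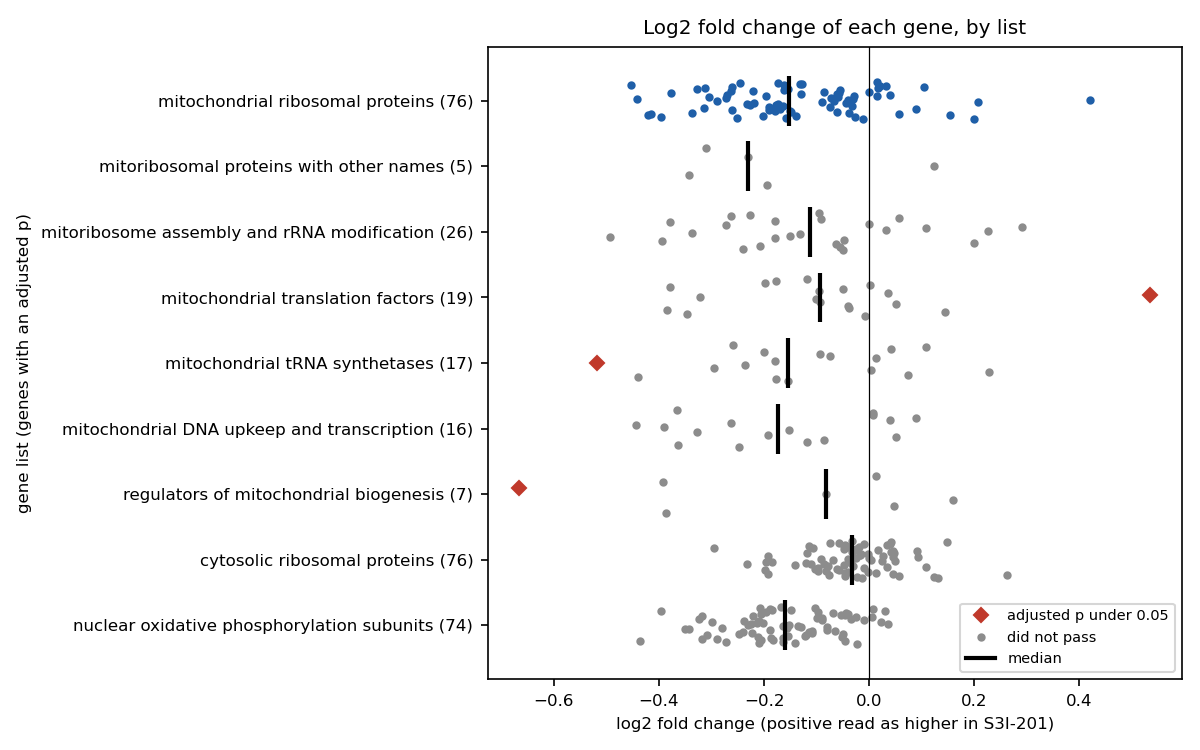
Log2 fold change (horizontal axis, positive read as higher in S3I-201) of each gene with an adjusted p, by list, with the number of genes in parentheses, black bars for medians and red diamonds for genes that passed an adjusted p of 0.05 (MTO1, MARS2 and PPARGC1B). No point of the mitochondrial ribosomal proteins (blue) is a diamond, and their median of -0.15 stands beside -0.16 for oxidative phosphorylation and -0.03 for cytosolic ribosomal proteins.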

How the data were processed

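RNA-seq libraries of REH cells with DMSO (3) or S3I-201 (3) were analysed from 1 table. Per the submitters' processing notes, reads were processed on hg38 with bcl2fastq 2.19, Trimmomatic, Bowtie2, Picard, featureCounts and DESeq2, with no role given. The mean normalized count, a signal, is the authors' size-factor-scaled average over libraries, per the file headers. The log2 fold change, p-value and adjusted p come from the authors' DESeq2 run, as the deposited column names show. An adjusted p was deposited for 11912 genes, all with a mean of at least 10.0. Benjamini-Hochberg values recomputed over these genes came within 0.675% of it.

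Genes were called at the authors' adjusted p of 0.05, adjusted over all these genes. Medians, implied SEs, intervals, exon overlaps (GENCODE 29) and motif matches were computed in Python 3.11.15 with numpy 2.4.6, pandas 2.3.3 and scipy 1.17.1, and the recalculation of p-values was tested on simulated data. Alternatives were other thresholds, adjustment over every gene that had a p-value, subtraction of the median or of an abundance trend in 20 bins, and a minimum mean of 100. The members and lists were chosen with earlier results of these data known. Named were the 6 lowest and 6 highest members, the 5 most abundant, those without an adjusted p, members with a special role, and in each other list the genes that passed or the 3 with the smallest adjusted p. Genes named beside these were chosen after their values were seen. The series' design text names independent experiments. Bacterial counterparts follow the current names of mitoribosomal proteins, by which MRPS18A and MRPS18B have none. MRPS18A was moved to the group without a counterpart after values were seen. Positions were assigned by hand from textbook knowledge. No column of single libraries was used, so the precision is that of the pooled test.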

Additional observations from a re-analysis of the deposited data

How the results depend on the processing

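The count of members past the test was 0 at an adjusted p of 0.05 and of 0.01, when every gene that had a p-value entered the adjustment, with the median of all tested genes subtracted, with the abundance trend subtracted and with a minimum mean of 100. At an adjusted p of 0.1 it was 2, MRPL51 and MRPS34, both negative. Which of MRPL51, MRPS34 and MRPL49 came nearest to passing changed with the centring. With the median or the trend subtracted, the adjusted p was 0.109 or 0.161 for MRPL51, 0.121 or 0.173 for MRPS34, and 0.0749 or 0.0567 for MRPL49, which is positive. With adjustment over every gene that had a p-value, these were 0.118, 0.132 and 0.143. The members' median log2 fold change ranged from -0.13 to -0.16 under its 5 alternatives, and the number of negative members was 61 with the median subtracted and 58 with the trend subtracted, where 50% of all tested genes were negative. Of 42 named genes, MRPL37 changed sign, from -0.033 to 0.031 with the abundance trend subtracted, and MARS2 and MTO1 did not pass 0.01. The trend removed at most 0.07 on the log2 scale from any gene. No paired analysis was possible because the table carries no values of single libraries, and for the same reason leaving out replicates and a count test in edgeR or DESeq2 were not run. Judged by the sign of their single-read genes, the libraries on the positive side had estimated depths of 14500000, 13600000 and 6600000 counts, while the negative side had 14100000, 11600000 and 10900000.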
